A study of Mus musculus with 18 samples.

Results

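The acetate change of each gene was compared between ACLY-deficient and wild-type mouse T helper 17 (Th17) cultures. For each genotype the acetate change is the mean of log2(TPM + 1) with acetate minus that without, where TPM is a transcript level scaled so that each library sums to 1e+06. The interaction is the acetate change in the ACLY-deficient cells minus that in the wild-type cells. A positive interaction means that the acetate change was more positive in the ACLY-deficient cells, and a negative one that it was more negative. The contrast uses 12 of the 18 libraries of the series, and 14229 of 45703 genes were tested, those that reached a TPM of 1 in 3 or more of the 18 libraries.

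Wild-type cells (WT below) are labelled wild type on the C57BL/6 background. ACLY-deficient cells (ACLYKO below) are labelled Acly-fl/fl Cd4-cre, so that the Acly allele is removed in cells that have expressed the Cd4 promoter, which includes all conventional T cells. Naive T cells of both genotypes were activated through CD3 and CD28 with Th17 polarizing cytokines for 48 h and then kept for 24 h without or with acetate, 20 mM in the sample protocols and 10 mM in the series text. All 12 cultures were then restimulated for 5 h with PMA and ionomycin, which bypass the antigen receptor, in the presence of brefeldin A and monensin, which block secretion. Each of the 4 groups has 3 libraries, numbered 1 to 3, and since the labels do not say whether separate mice were used, the spread behind each p-value may be technical. The number in the strain label differs between the ACLYKO libraries and was not used.

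ATP-citrate lyase, the product of Acly, cleaves citrate exported from mitochondria into oxaloacetate and acetyl-CoA in the cytosol. Acetyl-CoA is the substrate of fatty acid and sterol synthesis and of histone acetylation. Acetate can be turned into acetyl-CoA by the acetyl-CoA synthetases, ACSS2 in cytosol and nucleus and ACSS1 in mitochondria, without ATP-citrate lyase. Adding acetate to cells with and without ACLY therefore asks whether the genes that respond to acetate depend on the genotype.

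Library totals reconstructed from TPM and exon length were 18.8 to 30.1 M reads (M for 1e+06; median 23.3 M), and 1 read on a gene with 2000 bases of exons amounts to 0.0342 to 0.0625 TPM. The largest axis of variation within groups held 63.6% of the within-group variance. Scores on this axis sum to 0 within each group. WT replicate 1 (35.6), ACLYKO replicate 1 (90.2) and ACLYKO with acetate replicate 1 (29.5) lay above 10 and are called apart here, and the other 9 libraries lay between -53.5 and 0.66, with ACLYKO replicates 2 and 3 at -36.6 and -53.5. The summed level of the cytosolic ribosomal protein genes was 52171 TPM in ACLYKO replicate 1, against 95478 and 110660 TPM in the other ACLYKO libraries without acetate. Il17a, the signature cytokine gene of Th17 cells, was at 38.2 TPM or more in all 12 libraries.

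Acly itself was at 400, 395 and 392 TPM in WT and at 461, 457 and 421 TPM in WT with acetate. In ACLYKO it was at 7.01, 14.4 and 12.6 TPM without and at 11.0, 12.8 and 11.7 TPM with acetate. All ACLYKO libraries were far below all WT libraries, as the labels say. The interaction of Acly was -0.06 ± 0.31 (SE; limma adjusted p = 0.973), and no difference of the acetate change was detectable.

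The acetate change differed between the genotypes for 191 genes (limma, adjusted p under 0.05), 1.34% of those tested. It was higher in ACLYKO for 111 genes (0.78%) and lower for 80 (0.562%). In all 191 genes the 3 differences between same-numbered libraries of ACLYKO did not overlap those of WT, which was also the case in 17.6% of all tested genes. With the replicate number within each genotype as a block 100 genes were called, 44 higher and 56 lower, and 88 of them were among the 191. The count was 386 without ACLYKO replicate 1, 591 without the libraries that stood apart in the series (the 3 above and 1 GLUT3-deficient library), and 93 to 197 when any other single library of the 12 was left out.

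The 80 genes with a lower acetate change in ACLYKO had a median change of -1.14 in ACLYKO and of 0.11 in WT. The mean change in ACLYKO was negative for 78 of them, and 79 had a higher mean in ACLYKO than in WT without acetate. For 22 of the 80 this direction follows from the filter, which they passed only through the ACLYKO libraries without acetate, and 20 of the 111 called higher passed it only through those with acetate. For 75 of the 80 the difference between the genotypes was smaller with acetate, with a median absolute difference of 1.62 without and 0.38 with acetate on the log2 scale. The 111 genes with a higher acetate change had a median change of 1.5 in ACLYKO and of 0.15 in WT, and all 111 had a positive mean change in ACLYKO. Of these, 90 had a lower mean in ACLYKO than in WT without acetate and for 72 the difference was smaller with acetate (median absolute difference 0.90 without and 0.52 with). The interaction is also the ACLYKO minus WT difference with acetate minus that without, so these counts describe the same contrast and are no second test of it. Over all tested genes the median interaction was 0.12, and 62.2% were positive. Scaling each library by the median of its ratios to the gene means moved that median to -0.02 and the split of calls from 111 higher and 80 lower to 93 higher and 100 lower.

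**Figure D1:**
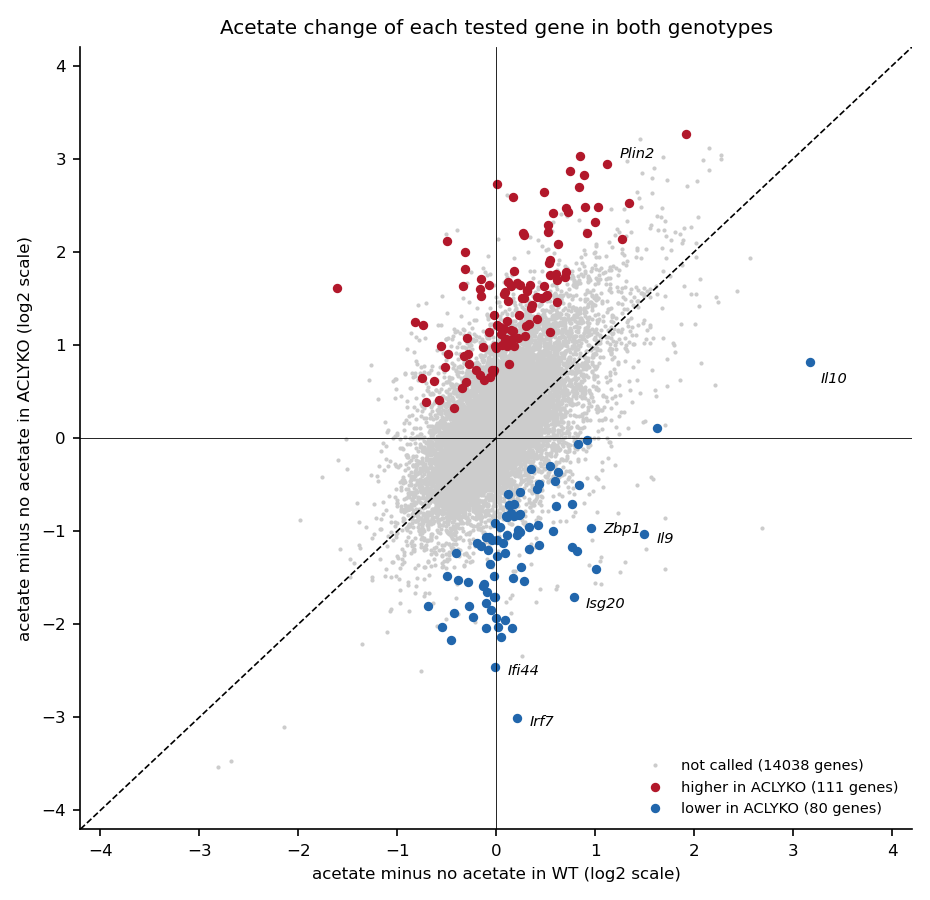
Acetate change (log2 scale) of each tested gene in WT (horizontal axis) and ACLYKO (vertical axis), with the 111 genes called higher in red, the 80 called lower in blue and equal changes on the dashed line. Most blue genes lie below the horizontal line at 0 and near the vertical one, since their median change was -1.14 in ACLYKO and 0.11 in WT. Il10 lies far to the right, with a change of 3.17 in WT and 0.82 in ACLYKO.

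Genes of the type I interferon response were among the 80 genes called lower. Type I interferons bind a receptor shared by most cells and activate a complex of STAT proteins and IRF9, which binds the interferon-stimulated response element in the promoters of antiviral genes. IRF7 is induced by this complex and amplifies interferon production. Of a list of 30 such genes 25 were tested, 11 had a lower acetate change in ACLYKO and 0 a higher one, beside 0.562% of all tested genes that were called lower. The median interaction of the 25 was -1.07 (median change 0.10 in WT and -0.86 in ACLYKO), and 0.12 over all tested genes. By replicate number the median of the 25 was -0.93, -1.05 and -1.19. These medians include members that passed the filter only through the ACLYKO libraries without acetate.

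The filter on low values bears on the count of called members and on these medians. Irf7, Ifi44, Ifit1, Rsad2, Oasl2, Oasl1, Xaf1 and Mx2, 8 of the 11, passed it only through the ACLYKO libraries without acetate, so for them a difference was to be found by construction. Of the 17 members that passed in other ways, Isg20, Zbp1 and Irf9 were called lower, 0 were called higher, 15 were negative and the median was -0.76. Of all 14059 genes that passed in other ways, 58 were called lower and 111 higher. Over all tested genes 62.2% were positive. Ifit3, Mx1, Oas2, Rtp4 and Cmpk2 did not pass the filter, and their highest group means lay between 0.0695 and 1.44 TPM, each in ACLYKO without acetate.

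Irf7 (chr7:141263183-141266499, minus strand, GRCm38.p6) was at 0.0646, 0.0470 and 0.0735 TPM in WT and at 0.0975, 0.304 and 0.283 TPM in WT with acetate. In ACLYKO it was at 9.71, 21.1 and 16.8 TPM without and at 0.757, 1.6 and 0.779 TPM with acetate. All 3 ACLYKO libraries without acetate were above all 9 others, and those with acetate remained above all WT libraries. The interaction of Irf7 was -3.21 ± 0.31 (SE; limma adjusted p = 9.85e-05), the lowest among the genes called. Ifit1 (chr19:34640889-34650009, plus strand), whose product binds viral RNA that lacks a methylated cap, was at 4.87, 4.44 and 3.55 TPM in ACLYKO and at 0.222, 0.224 and 0.132 TPM in ACLYKO with acetate. In WT it was at 0.190, 0.172 and 0.0539 TPM without and at 0.214, 0.159 and 0.156 TPM with acetate, the same low range as in ACLYKO with acetate (interaction -2.19 ± 0.15, limma adjusted p = 6.87e-06). Ifi44 was at 3.85, 6.28 and 6.02 TPM in ACLYKO, at 0.0341, 0.284 and 0.122 TPM with acetate there, and at 0.0318 TPM or less in the 6 WT libraries (interaction -2.44 ± 0.19, limma adjusted p = 1.30e-05). Ifi44 was not called by voom on the reads (voom adjusted p = 0.107).

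Ifnb1, which encodes interferon beta and was chosen after its values were seen, had no reads in any of the 6 WT libraries. It was at 2.41, 3.11 and 3.31 TPM in ACLYKO and at 0, 0.0959 and 0 TPM in ACLYKO with acetate. It thus passed the filter only through libraries of untreated knockout cells as well (interaction -1.93 ± 0.14, limma adjusted p = 6.87e-06). Rsad2 encodes viperin, which makes a chain-terminating nucleotide, and was at 3.53, 2.46 and 2.19 TPM in ACLYKO, at 0.103, 0.156 and 0.122 TPM with acetate and at most 0.0330 TPM in WT (interaction -1.68 ± 0.16, limma adjusted p = 9.85e-05). Rsad2 was not called by voom on the reads (voom adjusted p = 0.187).

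Zbp1 (chr2:173206612-173218959, minus strand), a sensor of left-handed double-stranded nucleic acid, had a higher mean with acetate in WT and a lower one in ACLYKO. It was at 4.89, 3.80 and 4.59 TPM in WT and at 9.39, 9.31 and 9.83 TPM with acetate. In ACLYKO it was at 33.9, 32.7 and 31.9 TPM without and at 15.4, 19.3 and 14.5 TPM with acetate. No 2 of the 4 groups overlapped, and the ratio between the genotypes narrowed with acetate (interaction -1.93 ± 0.22, limma adjusted p = 6.03e-04). Isg20, an RNA exonuclease, was at 17.7, 7.83 and 8.77 TPM in ACLYKO and 1.41, 3.43 and 3.30 TPM with acetate, while the WT means were 1.24 and 2.80 TPM (interaction -2.49 ± 0.39, limma adjusted p = 0.00665, and 0.0621 with the replicate block). Irf9, the DNA-binding subunit of the interferon-activated complex, was at 52.4, 28.0 and 27.4 TPM in ACLYKO and at 19.2, 15.9 and 13.9 TPM with acetate, beside 12.3 to 16.5 TPM in all WT libraries (interaction -1.25 ± 0.28, limma adjusted p = 0.0415). Irf9 lost its call when any 1 of 8 libraries was left out (adjusted p 0.0765 to 0.125), namely each of the 6 WT libraries and ACLYKO with acetate replicates 2 and 3.

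The other called members were Oasl2 (-1.79), Oasl1 (-1.46) and Mx2 (-0.99), which are named here after their values were seen, and Xaf1 (-1.28), also chosen so. Mx2 was not called with the replicate block (adjusted p = 0.060). Oasl2 (voom adjusted p = 0.106), Oasl1 and Mx2 were not called by voom on the reads. Oasl1 lost its call without any 1 of 10 of the 12 libraries (adjusted p 0.070 to 0.129), all but ACLYKO replicate 1 and ACLYKO with acetate replicate 2.

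Not every gene of the response had this pattern. Oas1a, which encodes an oligoadenylate synthetase, was at a mean of 3.74 TPM in ACLYKO and 3.76 TPM in ACLYKO with acetate, and at 0.102 and 0.170 TPM in WT (interaction -0.12, limma adjusted p = 0.972). Stat2, a subunit of the interferon-activated complex, had an interaction of -0.03. Isg15, a ubiquitin-like protein, was at 23.9, 132 and 154 TPM in ACLYKO and at 10.1, 66.4 and 42.6 TPM with acetate, with replicate 1 the lowest in both groups. Its interaction of -2.37 ± 0.94 did not pass (limma adjusted p = 0.334) but did with the replicate block (0.0314). Ddx58, which encodes the RNA sensor RIG-I, and Ifit2 were the only positive members among the 25 (0.67 and 0.36, neither called).

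**Figure D2:**
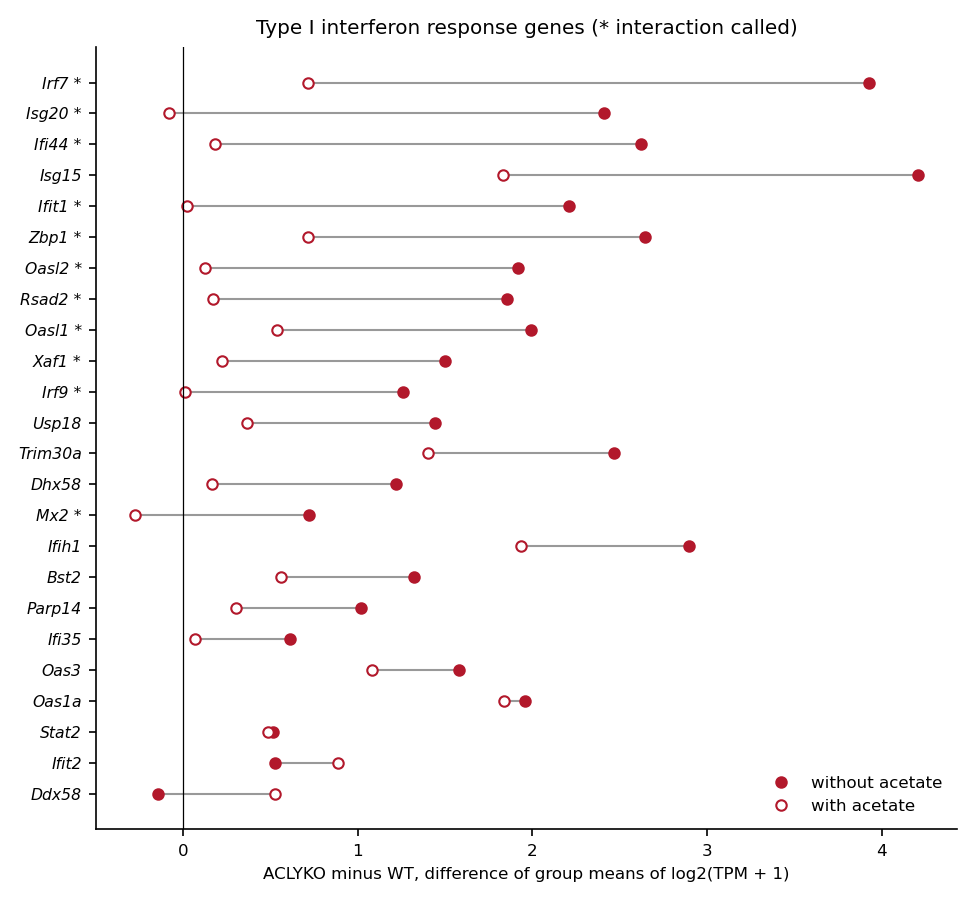
Difference between ACLYKO and WT in mean log2(TPM + 1) (horizontal axis) for 24 of the 25 tested members of the interferon list, without acetate (filled) and with acetate (open), ordered by interaction, with an asterisk at the 11 called. The lines from filled to open points run to the left in all members shown but Ddx58 and Ifit2.

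The promoter windows of 3 of these genes are shown because the interferon response element, GAAANNGAAA, is the sequence through which the response is known to act. Each is the stretch of 150 bases before the RefSeq start (GRCm38.p6), read in the direction of the gene, with matches to the element on either strand in capitals. The windows lie at chr19:34640739-34640888 (plus strand), chr12:26456453-26456602 (minus strand) and chr4:88522795-88522944 (minus strand).
Ifit1: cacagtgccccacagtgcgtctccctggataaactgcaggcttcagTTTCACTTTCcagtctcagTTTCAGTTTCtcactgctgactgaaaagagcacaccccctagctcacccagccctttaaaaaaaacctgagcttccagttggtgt
Rsad2: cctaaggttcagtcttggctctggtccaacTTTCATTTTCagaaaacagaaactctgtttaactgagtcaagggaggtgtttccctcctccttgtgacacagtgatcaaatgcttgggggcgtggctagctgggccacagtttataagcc
Ifnb1: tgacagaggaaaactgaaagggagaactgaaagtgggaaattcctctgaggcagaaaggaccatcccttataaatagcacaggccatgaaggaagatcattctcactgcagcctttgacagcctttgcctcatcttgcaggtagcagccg

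The Ifit1 window held 2 matches, starting at positions -104 and -85 from the start, and that of Rsad2 held 1, at -120. The Ifnb1 window held none, which says only that these letters were not found there. In windows of 300 bases (250 before and 50 after the start), 52.6% of the 19 tested interferon genes with a window held a match (10 genes), and 3.85% of 9360 tested genes did. Among the 11 called interferon genes it was 2 of 9 with a window, so that matches were present mostly in members that were not called. Of the called genes as a whole 6 of 63 lower and 7 of 84 higher genes had a match.

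**Figure D3:**
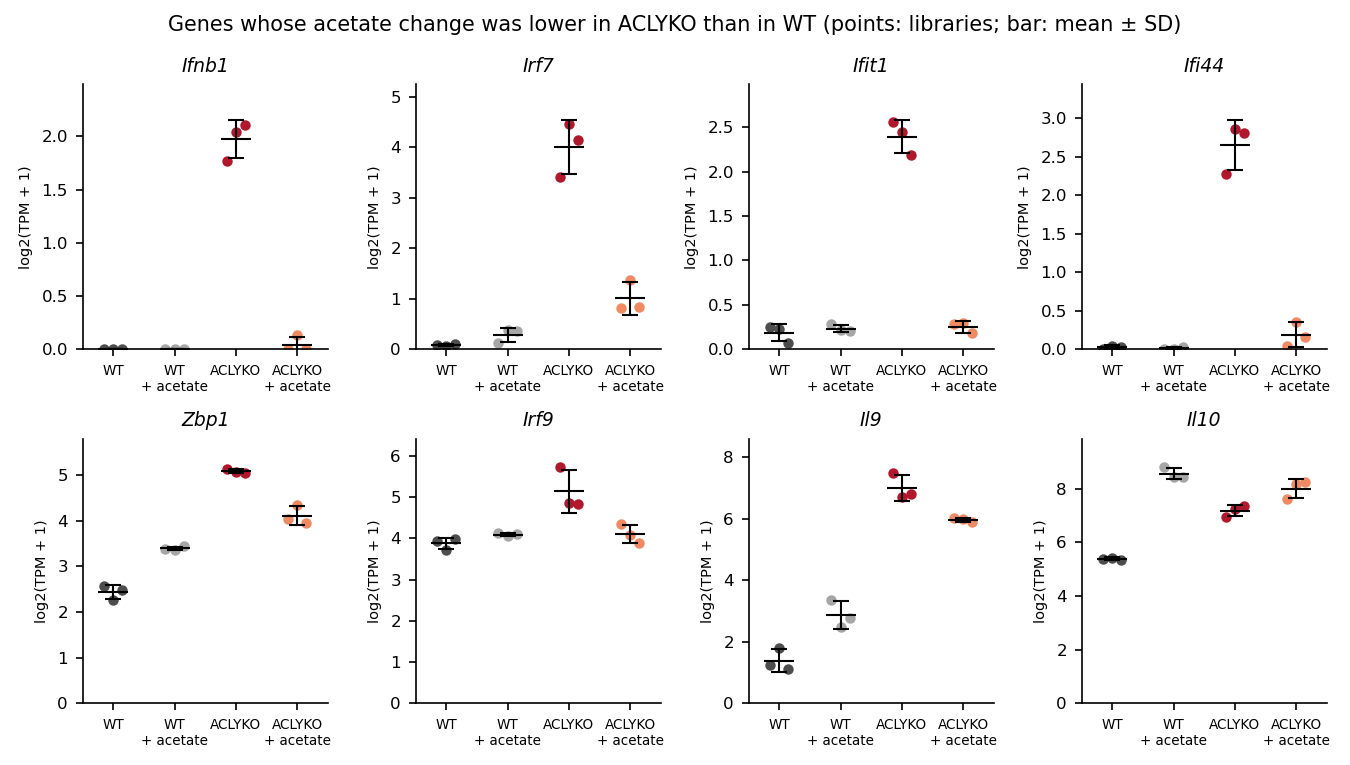
log2(TPM + 1) of 8 genes with a lower acetate change in ACLYKO, by library (points) in the 4 groups, with the mean and SD of 3 libraries. Ifnb1, Irf7, Ifit1 and Ifi44 are near 0 in both WT groups and highest in ACLYKO without acetate, while Il10 is highest in WT with acetate.

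Guanylate-binding proteins are GTPases that attack intracellular pathogens and are induced by interferons. Of 14 tested members of a list with the immunity-related GTPases, 2 were called lower and 0 higher (background 0.562% and 0.78%), and 10 were negative. Gbp6 was at 2.99, 2.91 and 2.14 TPM in ACLYKO, at 0.640, 0.924 and 0.903 TPM with acetate there, and at 0.421 TPM or less in all WT libraries (interaction -1.25 ± 0.17, limma adjusted p = 0.00233). Gbp10 had an interaction of -0.89 (adjusted p = 0.0152, and 0.088 with the replicate block). Both passed the filter only through the ACLYKO libraries without acetate. The interferon-gamma gene itself did not share the direction of these genes in ACLYKO, since Ifng was at 91.5, 166 and 206 TPM without and at 218, 372 and 363 TPM with acetate (interaction -0.61 ± 0.52, limma adjusted p = 0.742).

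Markers of macrophages, dendritic cells, NK cells and gamma-delta T cells were low, but not equal between the groups. Of 12 macrophage and dendritic cell markers 3 were tested, the defining C1qa, C1qb and C1qc were at 0 in the means of all 4 groups, and Csf1r and Lyz2 had group means of 0.0848 TPM or less. Their summed level was 1.86 to 3.42 TPM in WT, 3.89 to 4.01 TPM in WT with acetate, 4.51 to 9.84 TPM in ACLYKO and 6.80 to 8.41 TPM in ACLYKO with acetate, most of it Cd68. The summed level of 7 measured markers of NK and gamma-delta T cells was 13.2 to 21.8 TPM in ACLYKO and 11.8 to 15.5 TPM with acetate, against 2.77 to 6.13 TPM in WT libraries, most of it Trdc. The summed level of 3 markers of CD8 T cells was 16.6 to 22.0 TPM in WT and 25.9 to 29.8 TPM in WT with acetate. In ACLYKO it was 25.5 to 31.6 TPM without and 37.3 to 40.0 TPM with acetate. In bulk RNA a smaller number of cells of a type and less RNA per cell cannot be told apart, and the part of these markers in the results was not tested.

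Among 25 tested effector cytokine genes 2 were called lower, Il10 and Il9, and 0 higher (background 0.562% and 0.78%). The median interaction of the list was -0.61 with 17 negative members, and 11 members were lower at an unadjusted p under 0.05 and 2 higher, beside 3.41% and 7.83% of all tested genes. Il10 (chr1:131019845-131024970, plus strand), an anti-inflammatory cytokine, was at 41.0, 42.1 and 39.0 TPM in WT and at 442, 345 and 342 TPM in WT with acetate. The ACLYKO values were 123, 150 and 162 TPM without and 193, 285 and 299 TPM with acetate. ACLYKO thus lay above WT in every library without acetate and below it in every library with acetate, and the acetate change was 3.17 in WT against 0.82 in ACLYKO (interaction -2.35 ± 0.36, limma adjusted p = 0.00441).

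Il9, the cytokine of Th9 cells that is also made by Th17 cultures, moved in opposite directions by mean. It was at 1.37, 2.49 and 1.17 TPM in WT and at 9.30, 4.60 and 5.88 TPM with acetate. ACLYKO was at 181, 104 and 111 TPM without and at 64.6, 62.1 and 59.1 TPM with acetate, so that every ACLYKO library stayed above every WT library (interaction -2.52 ± 0.36, limma adjusted p = 0.00271).

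The signature cytokines of Th17 cells did not pass the test. Il17a was at 613, 599 and 703 TPM in WT and at 2111, 1458 and 1807 TPM with acetate. ACLYKO stood at 38.2, 117 and 156 TPM without and at 544, 662 and 744 TPM with acetate, which is a change of 2.85 against 1.48 in WT (interaction 1.37 ± 0.55, limma adjusted p = 0.343). Il17f had the opposite sign: it was at 867, 670 and 750 TPM in WT and 1814, 1467 and 1822 TPM with acetate, and at 425, 195 and 249 TPM in ACLYKO and 293, 299 and 354 TPM with acetate (interaction -0.96 ± 0.32, adjusted p = 0.202). The 3 same-numbered differences of ACLYKO did not overlap those of WT for either gene, which was also the case in 17.6% of all tested genes.

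Il22, an epithelial barrier cytokine, was at 0.365, 1.06 and 1.82 TPM in WT and 8.96, 5.95 and 10.2 TPM with acetate, and at no more than 1.30 TPM in the 6 ACLYKO libraries (interaction -1.63 ± 0.49, limma adjusted p = 0.154). Il21 had an interaction of -0.70 (0.381), Il2 of -1.20 (0.293) and Csf2, which encodes GM-CSF, of 0.14 (0.947), the values in brackets being limma adjusted p. Il2 was at 19694 TPM in ACLYKO replicate 1 and at 8466 and 11709 TPM in the other ACLYKO libraries without acetate, and it is the replicate that stood apart. Areg, which encodes the growth factor amphiregulin and was chosen after its values were seen, was at 25.0, 9.93 and 10.8 TPM in ACLYKO and at 1.61, 1.82 and 1.53 TPM with acetate, and did not pass (interaction -1.75 ± 0.42, adjusted p = 0.0563).

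Genes with other functions were also among the 12 largest negative interactions of called genes with a group mean of at least 5 TPM. Ch25h, which makes 25-hydroxycholesterol and is itself known as an interferon-induced gene, was at 2.99, 8.96 and 9.03 TPM in ACLYKO, at 0.714, 0.649 and 1.02 TPM with acetate and at 0.300 TPM or less in WT (interaction -2.20 ± 0.38, limma adjusted p = 0.00952). Plagl1, a zinc finger factor that restrains proliferation, was at 32.0, 22.5 and 20.9 TPM in ACLYKO and 5.81, 4.59 and 5.54 TPM with acetate, and at 2.60 to 3.60 TPM in the 6 WT libraries (interaction -2.04 ± 0.29, limma adjusted p = 0.00237). Slfn1, a schlafen family gene, was at 36.4, 23.5 and 21.8 TPM in ACLYKO and at 9.54, 13.1 and 11.3 TPM with acetate, beside 11.0, 12.9 and 12.0 TPM in WT with acetate (interaction -1.94 ± 0.27, adjusted p = 0.00228). With acetate the genotypes overlapped for Slfn1 and for Isg20.

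Ckmt1, a mitochondrial creatine kinase (-2.04), and Sulf2, a heparan sulfate sulfatase (-2.02), completed the 12 together with Snord4a. Sulf2 went from 1.89, 2.74 and 3.64 TPM to 4.99, 4.96 and 6.58 TPM in WT and from 5.81, 8.76 and 6.56 TPM to 2.82, 2.10 and 2.41 TPM in ACLYKO, so that the order of the genotypes turned. Snord4a is a small nucleolar RNA gene of 70 bases that lies inside Rpl23a, from which its reads may come (interaction -2.41 ± 0.52, limma adjusted p = 0.033 and 0.0663 with the replicate block). Snord4a had only 1 to 13 reads per library and was not called by voom on the reads. It lost its call without any 1 of 8 libraries (adjusted p 0.0525 to 0.0969), all but WT replicate 3, ACLYKO replicates 1 and 2 and ACLYKO with acetate replicate 2.

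Members of other lists were also called lower. Of 20 tested activation factors 1 was called lower and 0 higher (background 0.562% and 0.78%). This was Nr4a3, an orphan nuclear receptor induced by antigen receptor signals (interaction -1.34 ± 0.23, limma adjusted p = 0.00935). Klf2, a quiescence and trafficking factor of naive T cells, was at 1.84, 3.82 and 3.34 TPM in ACLYKO and at 0.301 TPM or less in the 9 other libraries (interaction -1.70 ± 0.30, adjusted p = 0.0108). Klf2 and Ch25h also passed the filter only through these libraries, so a difference was to be found by construction. Neither Klf2 (voom adjusted p = 0.0998) nor Ch25h was called by voom on the reads. Acod1, Ptgs2 and Cd86, all chosen after their values were seen, had the same form as the interferon genes, with interactions of -1.67, -1.70 and -1.57. They encode the itaconate-making enzyme of activated macrophages, the prostaglandin synthase COX-2 and a costimulatory ligand, and their means went from 7.27 to 1.48, from 11.3 to 2.17 and from 13.3 to 6.19 TPM with acetate in ACLYKO.

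The 12 genes with the largest positive interactions among called genes with a group mean of at least 5 TPM were, with 1 exception, below WT in ACLYKO without acetate. Serpinf1 (chr11:75410029-75422623, minus strand), which encodes the secreted antiangiogenic factor PEDF, was at 67.9, 55.6 and 48.9 TPM in WT and 66.7, 66.8 and 59.5 TPM with acetate. In ACLYKO it was at 1.24, 2.86 and 2.7 TPM without and at 21.8, 14.8 and 18.2 TPM with acetate, still below every WT library (interaction 2.41 ± 0.32, limma adjusted p = 0.00172). H1f0 (chr15:79028212-79030504, plus strand), a linker histone of resting and differentiated cells, was at 6.09, 12.7 and 11.4 TPM in ACLYKO and at 56.8, 32.1 and 39.2 TPM with acetate, within or above the WT range of 33.3 to 48.8 TPM in all but 1 library (interaction 2.32 ± 0.32, adjusted p = 0.00224). H2-Ab1 (chr17:34263227-34269418, plus strand), the beta chain of the MHC class II molecule I-A, was at 2.18, 3.23 and 3.83 TPM in ACLYKO and at 21.4, 26.9 and 24.1 TPM with acetate. In WT it was at 30.7, 38.1 and 35.7 TPM without and at 47.1, 50.6 and 49.3 TPM with acetate (interaction 2.15 ± 0.28, adjusted p = 0.00172).

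Of 15 tested genes of MHC class I and II and their antigen processing, H2-Ab1 was the only one called (higher; background 0.78%), and 7 were positive and 8 negative. Among the other class II genes H2-Aa, H2-DMb1 (0.41) and H2-DMa (0.28) had positive values, and H2-Eb1 (-0.48) and Cd74 negative ones. H2-Aa, the partner chain of H2-Ab1, was at means of 0.244, 0.848, 0.647 and 3.93 TPM in WT, WT with acetate, ACLYKO and ACLYKO with acetate (interaction 0.96, limma adjusted p = 0.523). Cd74, the invariant chain that escorts class II molecules, was at 211, 461 and 592 TPM in ACLYKO and 172, 267 and 240 TPM with acetate, and at 36.9, 29.5 and 34.5 TPM in WT and 74.1, 67.0 and 66.1 TPM with acetate. Its interaction of -1.81 ± 0.46 did not pass (adjusted p = 0.0792) but did with the replicate block (0.0363). Ciita, the class II transactivator, was at 0.0238 TPM or less in all group means. The summed level of 8 markers of B cells, which express class II molecules, was 2.64 to 5.28 TPM in WT libraries, 3.45 to 4.48 TPM in ACLYKO and 8.26 to 10.0 TPM in ACLYKO with acetate, with Ms4a1 at 0.0287 TPM or less in the means, and its part in the result was not tested.

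**Figure D4:**
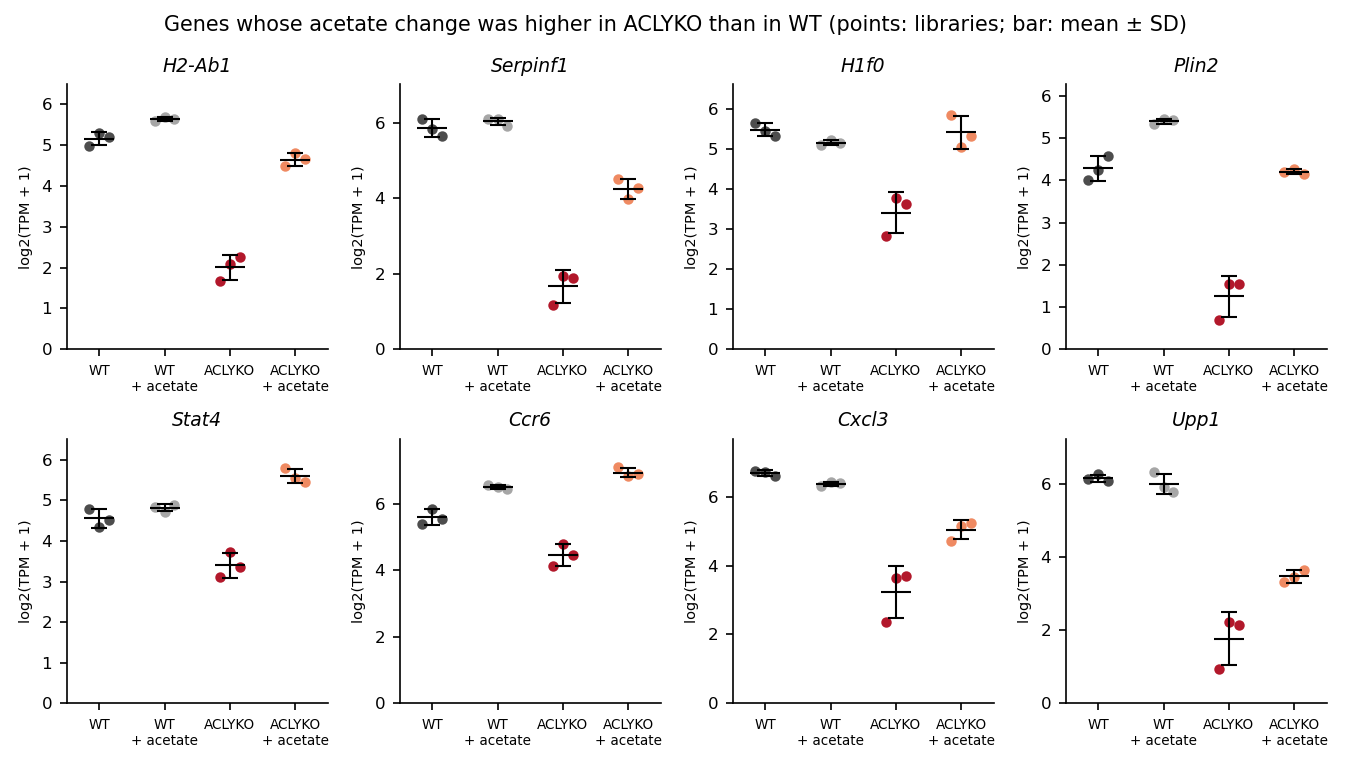
log2(TPM + 1) of 8 genes with a higher acetate change in ACLYKO, by library (points) in the 4 groups, with the mean and SD of 3 libraries. All 8 are lowest in ACLYKO without acetate, Stat4 and Ccr6 are highest in ACLYKO with acetate, and ACLYKO replicate 1 is the lowest of its group in each.

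Tgm2, which encodes a protein-crosslinking transglutaminase, had an interaction of 2.18 ± 0.40 (limma adjusted p = 0.0135, and 0.0775 with the replicate block). Cxcl3, a chemokine for neutrophils, was at 4.13, 11.4 and 11.9 TPM in ACLYKO and 25.5, 34.5 and 36.9 TPM with acetate, while WT was at 107, 104 and 95.3 TPM without and 78.2, 84.8 and 82.8 TPM with acetate (interaction 2.12 ± 0.41, adjusted p = 0.0201). Upp1, a uridine phosphorylase that frees ribose from uridine, was at 0.924, 3.69 and 3.42 TPM in ACLYKO, 8.92, 10.1 and 11.6 TPM with acetate and 54.2 to 79.2 TPM in WT (interaction 1.86 ± 0.37, adjusted p = 0.0223). Cxcl3 lost its call without any 1 of 7 libraries (adjusted p 0.0504 to 0.0691) and Upp1 without any 1 of 5 (0.0544 to 0.0775). For both these include WT replicate 2, WT with acetate replicates 2 and 3 and ACLYKO with acetate replicates 2 and 3, and for Cxcl3 also WT replicate 1 and WT with acetate replicate 1.

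The exception in the starting level was Foxs1, a forkhead factor. It was at 0, 0.783 and 1.05 TPM in ACLYKO and 0.381, 0.416 and 0.813 TPM in WT, and with acetate at 9.82, 9.69 and 11.3 TPM in ACLYKO against 1.15, 1.22 and 2.50 TPM in WT (interaction 2.12 ± 0.35, limma adjusted p = 0.00747). Foxs1 was not called by voom on the reads, with a pseudocount of 0.1 or in a fit of the 12 libraries alone. Stat4 (chr1:51987106-52107189, plus strand), which transmits interleukin-12 signals, also ended above WT: it was at 7.63, 12.3 and 9.28 TPM in ACLYKO and 54.7, 46.1 and 42.8 TPM with acetate, beside 19.5 to 28.8 TPM in the 6 WT libraries (interaction 1.94 ± 0.32, adjusted p = 0.00783).

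Itpripl2 (1.97), Sh2d3c (1.95) and Guca1a (1.91) lost their calls with the replicate block (adjusted p 0.0582, 0.0848 and 0.0633). Itpripl2 also did so without any 1 of 9 libraries, all but the 3 of ACLYKO without acetate (adjusted p 0.0548 to 0.0938). Sh2d3c encodes an adaptor of integrin signals, and Guca1a a guanylate cyclase activator of photoreceptors. Mir8113, a microRNA gene of 129 bases at chr6:125234684-125234812 (minus strand), lies inside Cd27 (chr6:125232620-125237136, minus strand), which had an interaction of 1.41, and the reads of the one cannot be told apart from those of the other (Mir8113 interaction 1.84 ± 0.31, limma adjusted p = 0.00916).

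Among Th17 receptors and transcription factors Ccr6 was the only one of 18 tested that was called (higher; background 0.78%). Ccr6 (chr17:8236041-8258519, plus strand), the chemokine receptor that guides Th17 cells to CCL20, was at 41.2, 56.8 and 45.8 TPM in WT and 93.5, 89.5 and 85.9 TPM with acetate. Those of ACLYKO were 16.5, 26.5 and 20.8 TPM without and 135, 112 and 118 TPM with acetate, so that ACLYKO went from below to above WT in every library (interaction 1.58 ± 0.25, limma adjusted p = 0.00711). Il23r, the receptor that stabilizes Th17 cells, had means of 12.2 and 24.8 TPM in WT and of 1.70 and 3.70 TPM in ACLYKO (interaction -0.17, adjusted p = 0.846), and Maf, a regulator of Il10, of 39.4 and 37.1 TPM in WT and 9.96 and 14.2 TPM in ACLYKO (0.54, adjusted p = 0.578). Cxcr5, the receptor of follicular helper T cells and chosen after its values were seen, was at 0.187, 0.779 and 0.564 TPM in ACLYKO and 14.7, 13.7 and 11.7 TPM with acetate, beside 1.80, 1.51 and 1.97 TPM in WT and 9.11, 8.88 and 10.4 TPM with acetate (interaction 1.34 ± 0.28, adjusted p = 0.0263). Cxcr5 lost its call without any 1 of 7 libraries (adjusted p 0.0506 to 0.0789), all but WT replicate 2, the 3 of ACLYKO without acetate and ACLYKO with acetate replicate 3.

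Of 16 tested genes of the T cell receptor complex and of costimulation 2 were called higher and 0 lower (background 0.78% and 0.562%). All 16 had a positive interaction, as did 62.2% of all tested genes, and their median was 0.55 beside 0.12 over all genes. Cd28, the main costimulatory receptor, was at 355, 457 and 393 TPM in ACLYKO and 885, 750 and 877 TPM with acetate, close to the 817 to 1003 TPM of WT libraries (interaction 0.98 ± 0.19, limma adjusted p = 0.0161, and 0.10 with the replicate block). Cd27, a costimulatory receptor of the TNF receptor family, was at 29.4, 21.1 and 19.7 TPM in ACLYKO and 85.1, 66.5 and 72.3 TPM with acetate, while WT libraries were at 51.9 to 75.9 TPM (interaction 1.41 ± 0.28, adjusted p = 0.0223). Cd28 lost its call without WT replicate 2, WT with acetate replicate 2 or ACLYKO with acetate replicate 3 (adjusted p 0.0525 to 0.0658), and Cd27 without any 1 of 7 libraries (0.0512 to 0.0735), which are WT replicate 1, WT with acetate replicates 1 to 3, ACLYKO replicate 3 and ACLYKO with acetate replicates 1 and 3.

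The positive values were largest between the libraries numbered 1. By replicate number the median of the list was 1.04, 0.20 and 0.33, and without the libraries that stood apart it was 0.25 with 14 of 16 positive. With median-ratio scaling 13 of 16 were positive. The 16 tested genes of regulatory T cells were also all positive, beside 62.2% of all genes, with a median of 0.48 (0.91, 0.27 and 0.56 by number). Of these 2 were called higher (background 0.78%), Izumo1r (1.15), also known as a folate receptor, and Tnfrsf9 (1.00), which encodes 4-1BB. Neither Izumo1r nor Tnfrsf9 was called with the block (adjusted p 0.0616 and 0.085), and 14 members were positive with median-ratio and 13 with quantile scaling. Foxp3, the lineage factor of these cells, was at 0.562 to 1.23 TPM in the 4 group means and was not called (0.51, adjusted p = 0.567).

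Genes of the G2 and M phases of the cell cycle had the highest median of the lists with at least 5 tested members, 1.08, and all 24 tested members were positive (62.2% of all genes), also with median-ratio and quantile scaling. None was called by limma or voom, and 6 were higher at an unadjusted p under 0.05 and 0 lower, beside 7.83% and 3.41% of all genes. Plk1, the polo-like kinase of mitosis and chosen after its values were seen, was at 28.3, 9.60 and 13.1 TPM in WT and 6.22, 6.07 and 15.6 TPM with acetate, and at 16.4, 22.5 and 15.2 TPM in ACLYKO and 89.9, 32.7 and 41.5 TPM with acetate (interaction 2.23 ± 0.73, limma adjusted p = 0.199). Replicate 1 had the highest Plk1 value in WT and in ACLYKO with acetate. By number the list median was 2.13, 0.64 and 0.38, and without the libraries that stood apart it was 0.57. Genes of S phase had a median of 0.14 over 26 members (0 called, 0 higher and 1 lower at an unadjusted p under 0.05, 0 by voom).

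**Figure D5:**
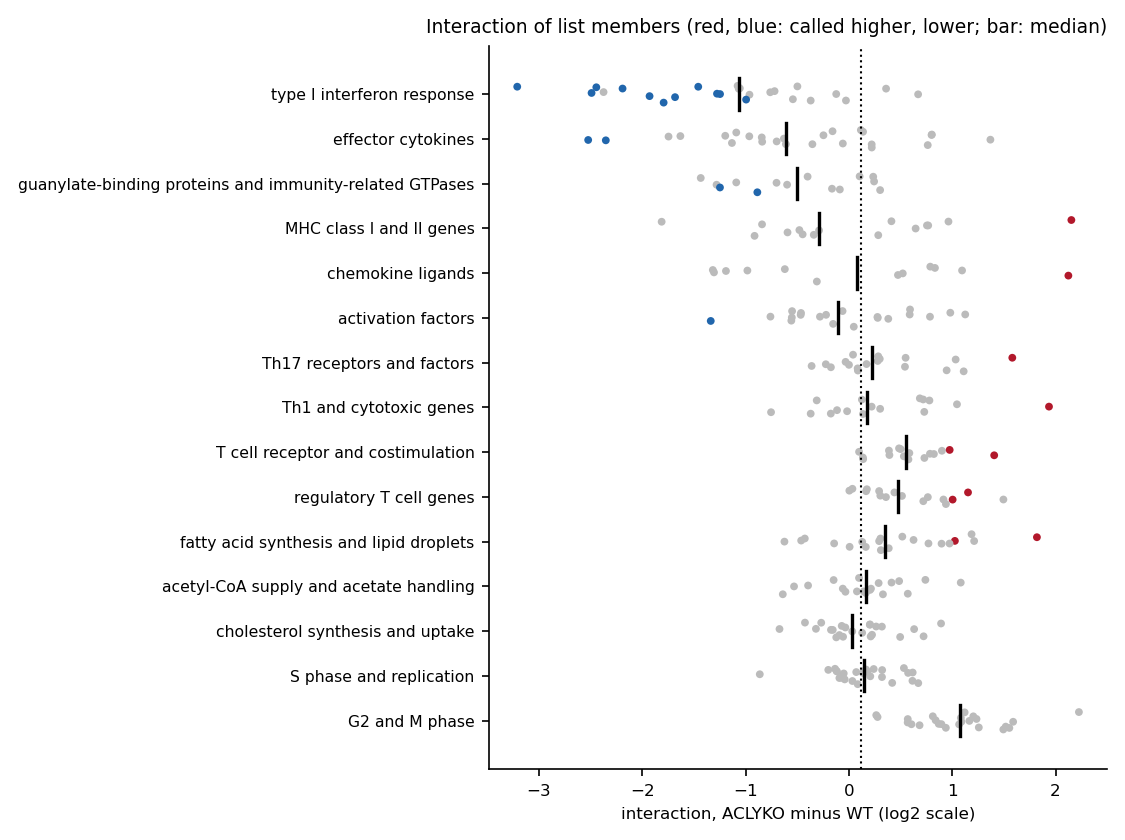
Interaction (log2 scale, horizontal axis) of each tested member of 15 gene lists, with called members in red (higher) and blue (lower), the list's median as a bar and the median of all tested genes, 0.12, as a dotted line. The interferon list has 11 blue members and a median of -1.07, and the 24 genes of G2 and M phase lie to the right of 0 without a call.

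The enzymes and carriers closest to acetate and acetyl-CoA showed no called difference. Of 19 tested genes of acetyl-CoA supply 0 were called by limma or by voom, and the median was 0.16. At an unadjusted p under 0.05, 1 was higher and 1 lower, beside 7.83% and 3.41% of all tested genes. Acss2 was at 3.18, 2.28 and 2.99 TPM in WT and 3.26, 3.76 and 3.52 TPM with acetate, and at 4.71, 8.13 and 6.72 TPM in ACLYKO and 8.27, 7.20 and 7.32 TPM with acetate (interaction -0.03 ± 0.27, limma adjusted p = 0.984). All ACLYKO libraries were above all WT libraries. Acss1 was at 0.865, 1.77 and 1.31 TPM in WT with acetate and at 2.39, 2.47 and 2.55 TPM in ACLYKO with acetate, from 0.430 to 0.633 TPM in all 6 libraries without acetate (interaction 0.57 ± 0.21, adjusted p = 0.264).

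In lipid metabolism 2 of 20 tested genes of fatty acid synthesis and lipid droplets were called higher and 0 lower, beside 0.78% and 0.562% of all genes. Plin2 (chr4:86626910-86670217, minus strand), which coats lipid droplets and is used as a measure of their amount, was at 15.1, 18.1 and 23.0 TPM in WT and 39.5, 42.7 and 42.1 TPM with acetate. In ACLYKO it was at 0.627, 1.90 and 1.91 TPM without and at 17.3, 18.2 and 16.7 TPM with acetate, which is the range of WT without acetate (interaction 1.82 ± 0.29, limma adjusted p = 0.00746). Elovl6, which extends palmitate to stearate, was at 1.16, 0.777 and 0.679 TPM in ACLYKO and 4.89, 4.02 and 4.25 TPM with acetate (interaction 1.03 ± 0.19, adjusted p = 0.0158, and 0.054 with the block). Elovl6 also lost its call without WT replicate 2 or WT with acetate replicate 1 or 2 (0.0507 to 0.0598). Fasn, the fatty acid synthase, had group means of 124, 95.4, 115 and 99.1 TPM in the order WT, WT with acetate, ACLYKO and ACLYKO with acetate (0.31, adjusted p = 0.864).

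None of 23 tested genes of cholesterol synthesis and uptake was called by limma or voom (median 0.03). At an unadjusted p under 0.05, 1 was higher and 0 lower, beside 7.83% and 3.41% of all tested genes. In glycolysis 1 of 19 tested genes was called higher and 0 lower (background 0.78% and 0.562%). This was Aldoc, an aldolase isozyme, at 1.42, 4.17 and 2.74 TPM in ACLYKO and 7.68, 12.0 and 9.92 TPM with acetate, and at 23.7 to 27.8 TPM in WT (interaction 1.48 ± 0.34, limma adjusted p = 0.0432). Aldoc lost its call without any 1 of 9 libraries (adjusted p 0.0733 to 0.122), all but ACLYKO replicates 1 and 2 and ACLYKO with acetate replicate 1. Txnip, a glucose-responsive inhibitor of glucose uptake that was chosen after its values were seen, was at 32.2, 63.4 and 52.4 TPM in ACLYKO and 97.2, 74.0 and 75.5 TPM with acetate, while WT went from 174, 178 and 178 TPM to 121, 132 and 118 TPM (interaction 1.28 ± 0.28, adjusted p = 0.0348, and 0.145 with the block). It too lost its call without any 1 of 9 libraries, all but the 3 of ACLYKO without acetate (0.0581 to 0.0969).

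Of 27 tested writers, erasers and readers of histone acetylation 0 were called by limma or voom, and the median was 0.18. At an unadjusted p under 0.05, 1 was higher and 0 lower, beside 7.83% and 3.41% of all tested genes. Of 10 tested members of the list of coinhibitory receptors 1 was called higher and 0 lower (background 0.78% and 0.562%). This was Cd226, a costimulatory receptor of T and NK cells (interaction 1.20, limma adjusted p = 0.0244, and 0.085 with the block). Il7r, the interleukin-7 receptor, had an interaction of 0.86 (0.0468, and 0.125 with the block). Cd226 lost its call without any 1 of 6 libraries (adjusted p 0.0545 to 0.0762), namely WT replicates 2 and 3, WT with acetate replicates 1 and 2 and ACLYKO with acetate replicates 2 and 3. Izumo1r lost it without any 1 of 7 libraries (0.0547 to 0.0968), all but WT replicate 2, WT with acetate replicate 1 and the 3 of ACLYKO without acetate. Tnfrsf9 lost it without any 1 of 10 (0.0598 to 0.117), all but ACLYKO replicates 1 and 2, and Il7r without any 1 of 11 (0.0585 to 0.150), all but ACLYKO replicate 1.

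No member was called by limma or by voom in the lists of the amino acid starvation response (21 tested genes), cytosolic ribosomal proteins (40), HIF targets outside glycolysis (15), LXR targets (7), MYC and ribosome biogenesis (24), NRF2 targets (17), the nuclear-encoded respiratory chain (44), p53 targets (16), Th2 and Th9 factors and receptors (7), the tricarboxylic acid cycle (22) and the unfolded protein response (19). Their medians lay between -0.19 for p53 targets, which include the growth arrest genes induced by DNA damage, and 0.48 for LXR targets, the genes of sterol efflux. At an unadjusted p under 0.05, 3 p53 targets and 3 HIF targets were lower and none higher, and 2 LXR targets were higher and 1 lower. Of all tested genes 7.83% were higher and 3.41% lower at that threshold. In the lists with 1 called member not given above by its count, Stat4 was 1 of 16 tested Th1 and cytotoxic genes, Cxcl3 was 1 of 12 chemokine ligands, and Klf2 (lower) and Il7r (higher) were 2 of 12 naive and memory genes. Over all tested genes 0.78% were called higher and 0.562% lower. Klf2 passed the filter only through the ACLYKO libraries without acetate.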

How the data were processed

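Polyadenylated RNA of 18 Th17 cultures was sequenced from 500 ng of total RNA (RIN above 7.8) with a stranded kit as single reads of 75 nt, per the labels' protocols. The submitters' processing notes name the aligner STAR (2.7.2b), the counter featureCounts (1.6.4, of Subread), bcl2fastq (2.20.0.422), cutadapt and DESeq2, and the build GRCm38.p6, without their settings or strand option. The authors deposited a table of TPM, a unit other than counts, for 45703 genes, with numbers written with decimal commas. It also gives the exon length of each gene in bases. TPM divides reads by exon length and by the library's total, so a large change in a few abundant genes moves all others. Every gene ID was found in RefSeq's gene table (GRCm38.p6), which gave the chromosomes and promoter windows.

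Multiplied by exon length, 100% of the TPM values that stand for fewer than 500 reads came out as whole reads (tolerance 0.01 reads), which gave the read totals and the reads for voom. Group means of log2(TPM + 1) over all 18 libraries were fitted with limma 3.58.1 in R 4.3.3 (eBayes with trend and robust on), and the interaction was taken as a contrast of the 4 groups, with Benjamini-Hochberg adjustment over 14229 genes and a threshold of 0.05. All adjusted p-values are from this fit or the named alternative of it. Values after ± are standard errors (SE) of the interaction, with n = 3 libraries per group.

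Same-numbered libraries of 1 genotype deviated together in 6 of 6 pairs (correlation of residuals 0.120 to 0.548), so the fit with genotype and number as a block is given where it changes a call or a count by over 1.5 times. Same-numbered libraries of different genotypes correlated at over 0.1 in 7 of 12 pairs (-0.0480 to 0.801), and with the number alone as a block 205 genes were called. These correlations cannot establish a pairing within a genotype, since pairs of different genotypes reached higher values. The labels say nothing of what a number shares.

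Genes named are Acly, 10 cytokine and acetyl-CoA synthetase genes, the 12 largest called interactions in each direction with a group mean of at least 5 TPM (no unnamed models, pseudogenes or receptor segments), and up to 4 called members of each list. A few genes are not reported here. Others are said to be chosen after their values were seen, or stand as examples of a list. The members and lists were chosen with earlier results of these data known. Libraries were called apart at a score above 10 on the residual axis. Alternatives covered the pseudocount, filter, scaling, fit, block, weights and each left-out library.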

Additional observations from a re-analysis of the deposited data

Results flagged for a closer look

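The contrast is itself a test of whether acetate effects differ between the genotypes, so each of its calls that the text names is listed here, beside the count of 191 genes called. All values are interactions on the log2 scale, ACLYKO minus WT, each with a limma adjusted p under 0.05. The 3 same-numbered differences of each gene did not overlap between the genotypes, which held for all 191 called genes and for 17.6% of all tested genes.

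Among the genes with a lower acetate change in ACLYKO, the interferon-related ones were Irf7 (-3.21), Isg20 (-2.49), Ifi44 (-2.44), Ifit1 (-2.19), Zbp1 (-1.93), Ifnb1 (-1.93), Oasl2 (-1.79), Rsad2 (-1.68), Oasl1 (-1.46), Xaf1 (-1.28), Irf9 (-1.25), Mx2 (-0.99), Gbp6 (-1.25) and Gbp10 (-0.89). All of these but Isg20, Zbp1 and Irf9 passed the filter only through the ACLYKO libraries without acetate. For them a difference was to be found by construction. The cytokines were Il9 (-2.52) and Il10 (-2.35). The others were Snord4a (-2.41), Ch25h (-2.20), Plagl1 (-2.04), Ckmt1 (-2.04), Sulf2 (-2.02), Slfn1 (-1.94), Klf2 (-1.70), Ptgs2 (-1.70), Acod1 (-1.67), Cd86 (-1.57) and Nr4a3 (-1.34). Of these, Ch25h and Klf2 passed the filter only through the ACLYKO libraries without acetate.

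Among the genes with a higher acetate change in ACLYKO, the largest with a group mean of at least 5 TPM (unnamed models, pseudogenes and receptor segments left out) were Serpinf1 (2.41), H1f0 (2.32), Tgm2 (2.18), H2-Ab1 (2.15), Cxcl3 (2.12), Foxs1 (2.12), Itpripl2 (1.97), Sh2d3c (1.95), Stat4 (1.94), Guca1a (1.91), Upp1 (1.86) and Mir8113 (1.84). The receptors of T cells were Ccr6 (1.58), Cd27 (1.41), Cxcr5 (1.34), Cd226 (1.20), Izumo1r (1.15), Tnfrsf9 (1.00), Cd28 (0.98) and Il7r (0.86). The metabolic genes were Plin2 (1.82), Aldoc (1.48), Txnip (1.28) and Elovl6 (1.03).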

How the results depend on the processing

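Of 51 called genes named in the text, 18 kept their call in each of the up to 26 alternatives in which they were tested, of which 14, among them Zbp1, Il9, Il10, H2-Ab1, Serpinf1, H1f0, Stat4 and Ccr6, did not pass the filter through 1 ACLYKO group alone, and 35 kept it in each fit that left out 1 library. None of the 51 changed sign in any alternative. Of all 191 called genes, 2 changed sign with voom on the reads and 82 were called by it in the same direction. Named genes not called by voom also included Acod1, Ckmt1, Mir8113, Upp1, Itpripl2, Aldoc, Txnip, Cd226, Il7r, Izumo1r and Tnfrsf9. Against 191 called genes (111 higher, 80 lower, 11 of them interferon list members called lower), the replicate block by genotype and number gave 100 genes (44 higher), a filter of 5 TPM 94 (57, 37 and 3 interferon genes), a fit of the 12 libraries alone 56 (20, 36 and 6), and voom on the reads 116 (56 higher and 6 interferon genes). Library weights gave 1831 (796, 1035 and 20), with weights from 0.0273 to 5.70 estimated gene by gene. Without a filter 143 genes were lower. Leaving out the libraries that stood apart, an alternative chosen after seeing the data, gave 591 (259, 332 and 18). Leaving out 1 library gave 93 to 386 genes, 42 to 183 higher and 49 to 203 lower, and 9 to 16 interferon genes. The cause of these differences was not tested. Uncalled values near 0 changed sign. Acly (0.128 and 0.0387 without ACLYKO replicates 2 and 3) ranged from -0.34 to 0.128 when 1 library was left out. Csf2 (-0.029 with median-ratio scaling, and -0.0275, -0.0149, -0.0248 and -0.0174 without 1 library each) ranged up to 0.45. Acss2 (0.0726, 0.0062, 0.120 and 0.00029 without replicate 2 of each group in turn) ranged down to -0.22. The list medians ranged from -0.19 to 0.43 for ribosomal proteins and from -0.29 to 0.22 for the respiratory chain, both negative without ACLYKO replicate 1, and from -0.0026 to 0.39 for CD8 markers, at -0.0095 with quantile scaling. Depth limits the WT levels of the interferon genes: without acetate Irf7 had 1 to 2 reads per WT library, Ifi44 0 to 1 and Ifit1 2 to 5.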
